A study of Mus musculus with 6 samples.

Results

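Transcripts of the subunits and inhibitors of NF-κB were followed in tumor and draining lymph node (LN) CD8 T cells with and without the IFNγ receptor. The set held 10 of the 32285 genes counted. It comprised the subunits Nfkb1, Rela, Rel, Nfkb2 and Relb, the cytoplasmic inhibitors Nfkbia and Nfkbie, the nuclear IκB proteins Nfkbid and Bcl3, and Tnfaip3, a ubiquitin-editing enzyme that restrains the pathway. The genes were taken by symbol, and all 10 passed the count minimum of 100 UMIs over both libraries in every comparison.

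Mice bore B16-OVA melanoma, a line without tyrosinase that expresses mCherry and ovalbumin. Control mice carried CD8-Cre and the Rosa26Tomato reporter. CD8-IFNgRKO mice carried the same 2 alleles and IFNgR1flox/flox, so that Cre, driven from the CD8α promoter, deletes the floxed part of the receptor gene in CD8 T cells. Mice of both sexes were 6 to 10 weeks old. Tumors and LN were taken at day 12 by the deposited labels (12 to 15 days by the methods), and sorted CD45+ CD3+ CD8+ Tomato+ cells of 3 mice were pooled for 1 library of 5′ transcript ends per tissue and genotype. Each group was thus a single library of pooled mice, and no test between groups was possible. Intervals given with the values are 95% intervals of counting error only. Tumors were digested with enzymes for 30 minutes at 37 °C and LN were mashed without them, so that tissue and tissue processing cannot be told apart.

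In resting T cells, NF-κB dimers are held in the cytoplasm by IκB proteins. Signals from the T cell receptor, costimulatory receptors and TNF receptors lead to loss of these inhibitors, and the dimers enter the nucleus. Many of the genes that NF-κB switches on encode its own inhibitors and subunits, including Nfkbia, Tnfaip3, Nfkb2 and Relb, so that their transcripts are often read as a trace of recent signaling. Nfkb1, Rela and Rel belong to the canonical branch and Nfkb2 and Relb to the non-canonical branch.

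RefSeq promoter windows (GRCm38.p6, from 250 bases before to 50 after a start site) were at hand for 8 of the 10 genes, 13 windows in all. At least 1 window of 7 of these 8 genes held a match to the κB consensus, searched on both strands. Among all 27025 genes with a window, 5.14% held one. The window of Rela held none. A match describes letters only and is not a site shown to be used. The stretches from position -230 to 20 relative to the start site are printed 5′ to 3′ for the genes on which the comparisons between genotypes turn and for Nfkbia, the gene with most UMIs, with κB matches in capitals:
Rel (chr11:23770950-23771199, minus strand): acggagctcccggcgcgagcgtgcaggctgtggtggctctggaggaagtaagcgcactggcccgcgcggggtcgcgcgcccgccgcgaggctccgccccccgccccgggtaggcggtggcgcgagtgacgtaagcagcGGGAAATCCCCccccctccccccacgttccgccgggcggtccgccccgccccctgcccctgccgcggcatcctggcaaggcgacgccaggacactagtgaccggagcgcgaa
Nfkbid (chr7:30422176-30422425, plus strand): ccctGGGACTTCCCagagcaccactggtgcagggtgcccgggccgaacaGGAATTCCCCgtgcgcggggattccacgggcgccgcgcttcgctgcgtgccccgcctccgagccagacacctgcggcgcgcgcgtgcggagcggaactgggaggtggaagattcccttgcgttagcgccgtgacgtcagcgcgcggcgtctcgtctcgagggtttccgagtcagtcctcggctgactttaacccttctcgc
Tnfaip3 (chr10:19015391-19015640, minus strand): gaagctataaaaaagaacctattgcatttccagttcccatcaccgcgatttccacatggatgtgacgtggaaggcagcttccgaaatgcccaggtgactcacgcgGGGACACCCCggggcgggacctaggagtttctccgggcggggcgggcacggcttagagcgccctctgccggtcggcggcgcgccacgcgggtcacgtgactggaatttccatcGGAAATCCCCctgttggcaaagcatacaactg
Nfkbia (chr12:55492628-55492877, minus strand): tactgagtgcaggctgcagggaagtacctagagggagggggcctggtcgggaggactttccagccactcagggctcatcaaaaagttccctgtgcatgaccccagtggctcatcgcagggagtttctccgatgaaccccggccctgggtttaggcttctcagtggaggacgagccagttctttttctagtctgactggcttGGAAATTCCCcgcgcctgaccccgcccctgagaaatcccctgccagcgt
Bcl3 (chr7:19822736-19822985, minus strand): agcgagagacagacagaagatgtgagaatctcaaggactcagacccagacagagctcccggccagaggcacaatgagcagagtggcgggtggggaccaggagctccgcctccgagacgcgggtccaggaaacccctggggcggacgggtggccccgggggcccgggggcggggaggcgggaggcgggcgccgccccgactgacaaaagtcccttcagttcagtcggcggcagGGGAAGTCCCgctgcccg
In the stretches printed, Tnfaip3 and Nfkbid had 2 separate matches each, Rel and Nfkbia 1 stretch upstream of the start, and Bcl3 a match 3 to 12 bases after it. Nfkbid had 3 windows and Tnfaip3 had 2, and the window printed is the one with matches. The other windows of these 2 genes, at other start sites, held none.

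After filters on genes, mitochondrial share and Cd2, Cd8a and Cd8b1, 6641 control LN, 6731 CD8-IFNgRKO LN, 7080 control tumor and 8625 CD8-IFNgRKO tumor cells were kept, with 29934686, 28841136, 59234094 and 93854215 UMIs and medians of 4051, 3863, 6313.5 and 9405 UMIs per cell. The CD8-IFNgRKO tumor library was the deepest. Ifngr1, the targeted gene, stood at 718 CPM (counts-per-million, the UMIs of a gene scaled to the UMIs of its library) in control and 237 CPM in CD8-IFNgRKO tumor cells, and at 182 and 137 CPM in LN. Reads of 5′ ends can lie outside the deleted part and check the deletion only in part. Cd3e, Cd8a and Cd8b1 ranged from 738 to 1707 CPM and Cd4 was at most at 18.4 CPM. The 14 macrophage or dendritic cell markers summed to 107 and 83.5 CPM in control and CD8-IFNgRKO tumor cells and to 14.6 and 23.9 CPM in LN, and the 7 B cell markers to 11.6 and 43.4 CPM in the tumor and 242 and 251 CPM in LN. Between 51 and 82 kept barcodes were shared by any 2 libraries.

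Nfkbia and Tnfaip3 were the most abundant of the 10 transcripts in every library. As each UMI stands for 1 molecule tagged at its 5′ end, the levels were compared between genes without division by length. Nfkbia stood at 944 CPM (936 to 952) in control tumor, 731 CPM (725 to 736) in CD8-IFNgRKO tumor, 352 CPM (346 to 359) in control LN and 274 CPM (268 to 280.5) in CD8-IFNgRKO LN. Tnfaip3 was at 449, 289, 348 and 349 CPM in the same order. In control LN the 2 genes therefore lay close to each other and their intervals overlapped. In CD8-IFNgRKO LN Tnfaip3 was above Nfkbia beyond counting error, while in the tumor Nfkbia was far above Tnfaip3 in both genotypes.

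The subunits formed a middle group, led by Nfkb1 in every library and followed by Rela. Nfkb1 was at 92.8 CPM in control tumor, 84.0 in CD8-IFNgRKO tumor, 120.2 in control LN and 118 in CD8-IFNgRKO LN. Rela was at 81.0, 67.5, 81.4 and 80.8 CPM. The order of the remaining subunits changed with the library. In control tumor, Nfkb2 (70.9 CPM) and Rel (70.4 CPM) were next and did not differ beyond counting error. In CD8-IFNgRKO tumor, Rel (38.2 CPM) had the lowest level of the subunits, together with Relb (38.3 CPM), and the 2 intervals overlapped. In LN, Relb came next after Rela, at 49.1 and 46.5 CPM, and Nfkb2 last, at 37.9 and 33.2 CPM.

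Nfkbie, Nfkbid and Bcl3 were the scarcest, with 1 exception. Bcl3, a nuclear IκB protein that joins dimers of the Nfkb1 and Nfkb2 products, was at 65.0 CPM in control and 57.1 CPM in CD8-IFNgRKO tumor cells, above Relb in both. In LN it was at 29.5 and 14.8 CPM. Nfkbie, a cytoplasmic inhibitor that holds Rel and Rela, ranged from 19.97 to 41.0 CPM and Nfkbid, a nuclear IκB protein needed for Rel-dependent transcription, from 20.2 to 32.1 CPM. In the plot of levels by library, the dark red points (CD8-IFNgRKO tumor) lie to the left of the orange ones (control tumor) for all 10 genes.

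**Figure D1:**
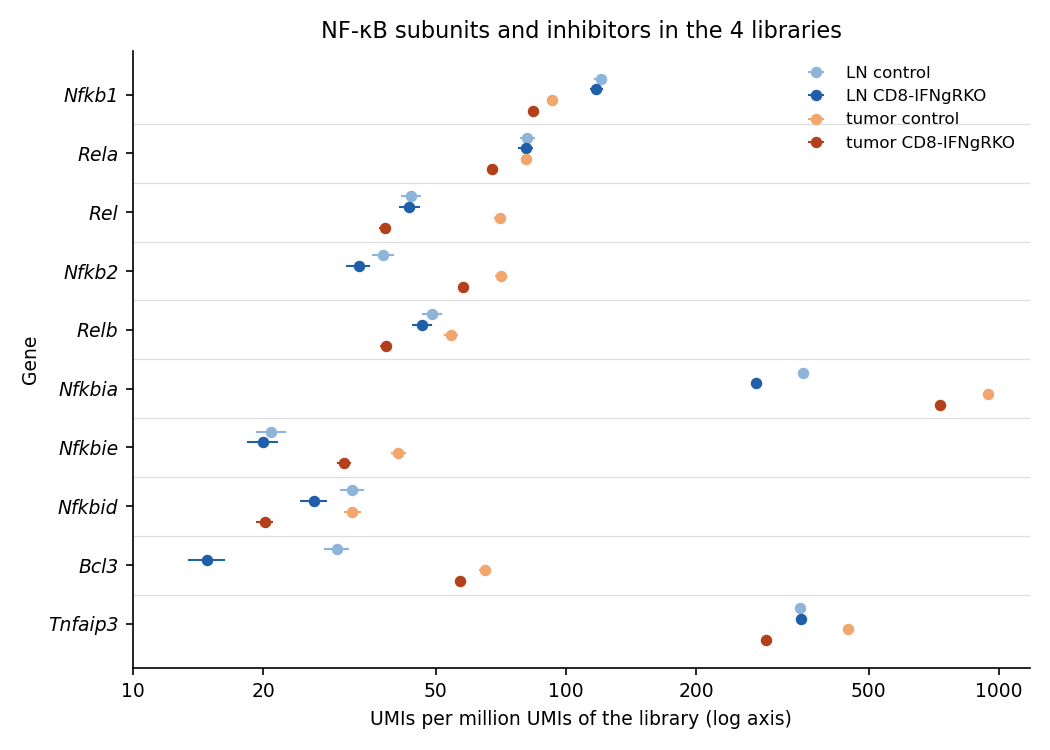
Level of each gene in CPM (horizontal log axis) in the 4 libraries, with 95% counting intervals as bars. Nfkbia (274 to 944) and Tnfaip3 (289 to 449) lie to the right of the other 8 genes, which lie between 14.8 and 120.2.

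The share of cells with a UMI gave Nfkbia and Tnfaip3 as the most widely detected genes as well. After thinning each cell to 1600 UMIs, which left out 41 to 699 shallower cells per library, Nfkbia was found in 62.8% of control and 54.7% of CD8-IFNgRKO tumor cells, and Tnfaip3 in 50.6% and 38.6%. In LN the order was turned, with Tnfaip3 in 38.7% and 39.6% and Nfkbia in 35.5% and 29.3% of cells. Rel was found in 10.6% (9.82 to 11.3) and 6.27% (5.76 to 6.81). Without thinning, these shares were 84.1% and 84.9% for Nfkbia, 83.2% and 81.2% for Tnfaip3 and 34.3% and 28.2% for Rel, in cells whose median depths differed as given above. Of the thinned values of all 10 genes, the lowest was that of Bcl3 in CD8-IFNgRKO LN, 2.21%. Lyz2 and Cd79a, which CD8 T cells do not express, were found in 0.0120% to 0.135% of the thinned cells. Cd74, a macrophage or dendritic cell marker looked at in the same way, was found in 0.822% (CD8-IFNgRKO LN) to 1.79% (control tumor).

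In the tumor, all 10 genes were lower in CD8-IFNgRKO than in control cells, a difference between single libraries of pooled mice. Whether it follows from IFNγ sensing was not tested. Rel was the furthest apart, with a log2 ratio of -0.87 (-0.93 to -0.80), from 3583 and 4172 UMIs. Nfkbid followed at -0.64 (-0.73 to -0.55) and Tnfaip3 at -0.63 (-0.66 to -0.61). These 3 genes were past a fold of 0.5 on the log2 scale, the size by which genes are called here. Among the 11307 genes with at least 100 UMIs, 5.73% were past this fold in the lower and 8.11% in the higher direction, and none of the 10 was past it in the higher direction. The median log2 ratio was -0.39 over the 10 genes and 0.02 over all genes tested, of which 5349 were below 0.

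Relb, the transcriptional partner of the Nfkb2 product, lay just inside the limit, at -0.49 (-0.56 to -0.42). The inhibitors Nfkbie (-0.41) and Nfkbia (-0.37, -0.39 to -0.35) came next, followed by Nfkb2 (-0.29) and Rela (-0.26), the main transactivating subunit. Bcl3 (-0.18) and Nfkb1 (-0.14, -0.19 to -0.09) were nearest to 0. Thus the canonical subunits split, with Rel far from Nfkb1 and Rela, and no interval of the 10 genes reached 0. The direction was the same for all 10 genes under all 14 other ways of choosing and scaling the cells. With 10 CPM added in place of 1, Nfkbid was at -0.48 and no longer past the fold.

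Other gene groups differed between the same 2 tumor libraries. Of the immediate early genes, 6 of 14 were past the fold in the lower direction and none in the higher, with a median of -0.38. Of the heat shock genes, 9 of 11 were past it in the higher direction, with a median of 0.83, and so were 12 of 15 cycling markers. Among markers of T cell states, 6 of 11 recently activated-like genes were lower and 2 higher (median -0.61), 8 of 17 Exhausted-like genes were lower and 2 higher (median -0.40), and 5 of 10 naive-like genes were higher. Of 9 macrophage or dendritic cell markers with enough UMIs, 3 were lower and 2 higher, and the 3 B cell markers with enough UMIs were all higher. Of 9 stem-like genes, 4 were higher and 1 lower (median 0.49). Among 17 IFNγ response genes, 3 were lower and 0 higher, and 12 were below 0 (median -0.24). The part of these groups in the values of the NF-κB genes was not tested.

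In LN, 9 of the 10 genes were below 0, as were 4152 of the 10080 genes tested, but most of the 9 lay close to it. Only Bcl3 was past the fold. It was at 14.8 CPM (13.4 to 16.3) in CD8-IFNgRKO and 29.5 CPM (27.6 to 31.5) in control cells, a log2 ratio of -0.95 (-1.11 to -0.79), from 427 and 884 UMIs. Of the 10080 genes tested in LN, 0.784% were past the fold in the lower and 0.417% in the higher direction, and Bcl3 stood in place 10 counted from the lowest ratio.

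Nfkbia was the next, at -0.36 (-0.40 to -0.32), a size close to its value in the tumor. Nfkbid was at -0.28 (-0.42 to -0.15) and Nfkb2 at -0.19 (-0.31 to -0.06). The intervals of Nfkb1 (-0.03), Rela (-0.01), Rel (-0.01), Relb (-0.08) and Nfkbie (-0.06) all held 0, as did that of Tnfaip3 (0.00, -0.04 to 0.04). The median was -0.07 over the 10 genes and 0.02 over all genes tested. After thinning the cells, 6 of the 10 genes were below 0 in place of 9, and the share over all genes was not computed. Nfkb2 was then at 0.02, so that its direction, like that of the genes near 0, depends on the scaling.

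The 2 tissues thus differed in which genes stood out. Rel and Tnfaip3 were past the fold in the tumor and had ratios of -0.01 and 0.00 in LN, while Bcl3 was at -0.95 in LN and -0.18 in the tumor. Whether the effects differ between the tissues was not tested, since each rests on 1 library a group. In LN, 6 of 17 IFNγ response genes were past the fold in the lower direction and all 17 were below 0, with a median of -0.36. No immediate early gene was past the fold, 6 of 10 heat shock genes were past it in the higher direction, and the part of these genes in the values of Nfkbia and Bcl3 was not tested.

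**Figure D2:**
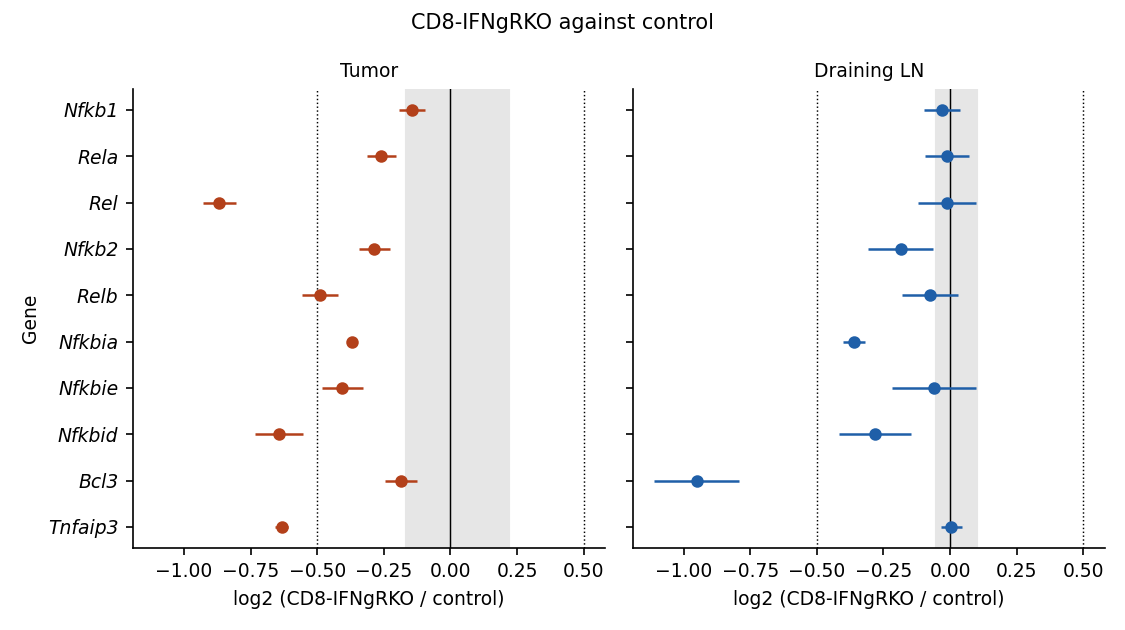
Log2 ratio of CD8-IFNgRKO to control (horizontal axis, 1 CPM added) in tumor (left) and LN (right), with 95% counting intervals, the middle 50 percent of all genes tested in grey and the limit of 0.5 dotted. Rel (-0.87), Nfkbid (-0.64) and Tnfaip3 (-0.63) lie beyond the limit in the tumor and Bcl3 (-0.95) in LN.

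Compared with LN, tumor cells had more Nfkbia, Nfkbie, Bcl3 and Nfkb2 in both genotypes. The libraries of each genotype differ in tissue and in digestion, and 26.4% of 10905 genes in control and 27.6% of 11282 genes in CD8-IFNgRKO cells were past the fold in the lower direction, 28.6% and 30.5% in the higher. Against this background, the counts of 5 and 4 NF-κB genes past the fold in the higher direction and 0 in the lower say little about the set. Nfkbia had a log2 ratio of 1.42 (1.39 to 1.45) in control and 1.41 (1.38 to 1.44) in CD8-IFNgRKO cells, a fold that hardly differed between genotypes.

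Bcl3 was 1.11 (1.01 to 1.22) higher on the log2 scale in control tumor and 1.88 (1.74 to 2.01) higher in CD8-IFNgRKO tumor than in the LN of the same genotype. Nfkb2 was at 0.89 and 0.79, and Nfkbie at 0.94 and 0.60. Nfkb1 was on the LN side in both genotypes, at -0.37 and -0.48. Nfkbid did not share the direction of Nfkbia, Nfkbie and Bcl3. It was at 0.00 (-0.11 to 0.11) in control and -0.36 (-0.48 to -0.24) in CD8-IFNgRKO cells, and its signs changed with the scaling. Setting the total without T cell receptor, heat shock, ribosomal protein and mitochondrial genes moved the median of all genes by -0.27 in control and -0.25 in CD8-IFNgRKO cells, and the share of genes past the fold to 38.4% lower and 21.3% higher in control and 37.6% lower and 23.7% higher in CD8-IFNgRKO cells. With that total, 1 of the 10 genes in control and 5 in CD8-IFNgRKO cells were past the fold in the lower direction, and Rel in control cells was at 0.39 and no longer past it, while Nfkbia, Bcl3 and Nfkb2 kept at least 1.13, 0.84 and 0.53 under every alternative tried.

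For 3 genes the tissue difference pointed in opposite directions in the 2 genotypes. Rel was 0.67 (0.58 to 0.76) higher in the tumor than in LN in control cells and -0.18 (-0.28 to -0.09) in CD8-IFNgRKO cells. Tnfaip3 was at 0.37 and -0.27 and Relb at 0.14 and -0.27. Only the value of Rel in control cells was past the fold. This contrast comes from the same libraries as the ratios between genotypes given above, and is not a separate result. The sign of Relb in control cells flipped to -0.14 with the total described above, and that of Tnfaip3 in CD8-IFNgRKO cells to 0.11 with the mean of single-cell CPM and 0.07 when cells were thinned.

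**Figure D3:**
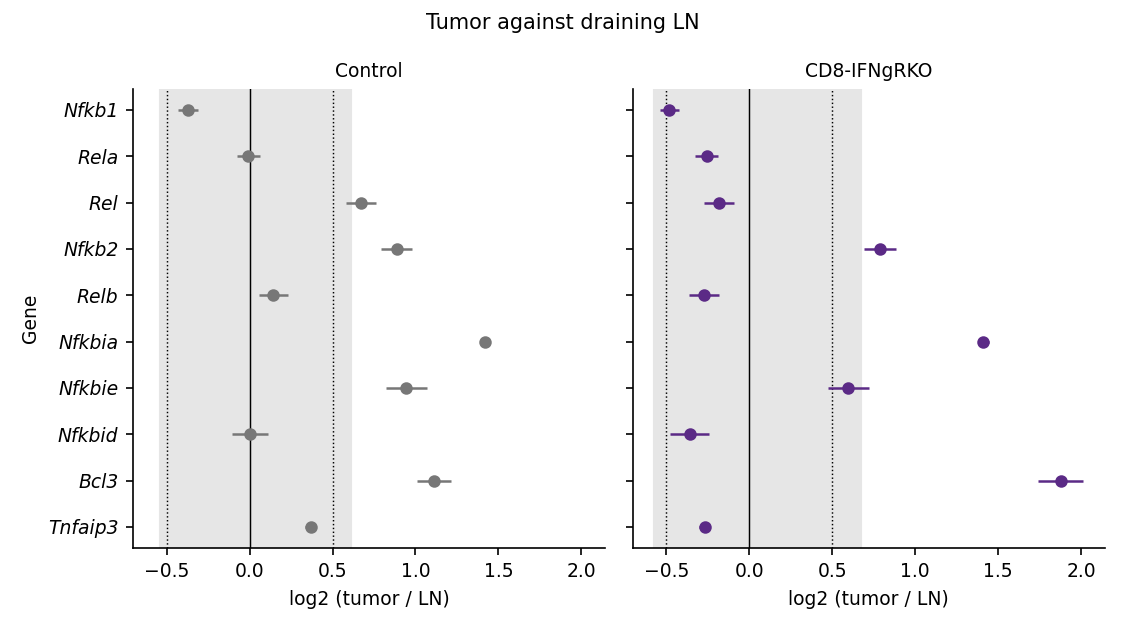
Log2 ratio of tumor to LN (horizontal axis, 1 CPM added) in control (left) and CD8-IFNgRKO cells (right), with 95% counting intervals, the middle 50 percent of all genes tested in grey and the limit of 0.5 dotted. Nfkbia lies at 1.42 and 1.41, and Rel moves from 0.67 to -0.18.

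The wider pathway was described with lists of receptors and adaptors, ubiquitin ligases and deubiquitinases, other IκB proteins, and target genes. The IκB list also held Nkrf, an NF-κB repressing factor that is not an IκB protein. In the tumor, 22 of 28 target genes with enough UMIs were below 0 in CD8-IFNgRKO cells, 8 were past the fold in the lower and 3 in the higher direction, and the median was -0.30. Of the receptors and adaptors, 2 of 18 were past the fold (Il18rap at -0.60 and Tnfrsf1b at -0.54). So were 2 of 15 genes of the ubiquitin list (Tnip3 and Zc3h12a) and 1 of 3 genes of the IκB list (Nfkbiz at -0.85). Each of these was past the fold in the lower direction. Il18rap, Tnfrsf1b and Nfkbiz were named after their values were seen. After thinning, no receptor or adaptor was past it.

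The lowest values were those of Tnip3, a partner of the Tnfaip3 protein, at -1.64 (9.56 against 31.8 CPM), and of Zc3h12a, an RNase that degrades inflammatory messages, at -1.36 (35.8 against 93.2 CPM). The cytokine Csf2 followed at -0.99 (2.28 against 5.52 CPM). The highest were Myc, a driver of growth, at 1.14 (95.1 against 42.6 CPM), Ebi3 at 0.64 (1.63 against 0.692 CPM) and the glucose transporter Slc2a1 at 0.59 (102 against 67.1 CPM). Target genes therefore did not lie on one side.

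In LN, 5 of 24 target genes were past the fold in the lower and 1 in the higher direction, and no gene of the other 3 lists was past it. After thinning, the target genes past it were 6 lower and 0 higher. The chemokine Ccl4 was lowest, at -0.75 (17.2 against 29.6 CPM), followed by Ier3 (-0.70) and Tnf (-0.60). Cd74, which is also high in B cells and dendritic cells, was highest, at 0.63 (13.6 against 8.45 CPM), with Tnfaip8 at 0.28 and Tnfrsf4 at 0.25. Between tissues, 16 of 27 target genes in control and 15 of 28 in CD8-IFNgRKO cells were past the fold in the higher direction. In the lower direction, 4 and 8 were past it. Of all genes tested, 28.6% and 30.5% were past it in the higher and 26.4% and 27.6% in the lower direction. Ccl3, Tnfrsf9 and Bcl2a1d were highest (7.41, 6.46 and 6.36 in control, 7.43, 6.36 and 6.47 in CD8-IFNgRKO cells). Ccr7 (-3.08 in control and -3.37 in CD8-IFNgRKO cells) and the kinase Ikbke (-2.57 and -2.75), of a list whose counts are not given here, were lowest, followed by Myc (-2.26) in control and Zfp36l1 (-2.005) in CD8-IFNgRKO cells.

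Clusters were built in each tissue without the 10 genes and the 4 lists of signaling components and IκB proteins, and are described by their leading genes. Target genes were not held out, so that their counts by cluster are a description of genes that could shape the clusters. In the tumor, T0 (Esco2, Fbxo5, Rrm2) and T2 (Ccnb2, Cdc20, Cdkn3) were cycling-like. T1 was led by granzymes (Gzmd, Gzmg, Gzme). Its 3 Exhausted-like markers were granzymes too (Gzmd, Gzme, Gzmf), and no inhibitory receptor was among its 10 leading genes. T4 was led by Tcf7, Klf3 and S1pr1 with 7 naive-like and 3 stem-like markers, and T5 by Ifit1, Ifit3 and Rsad2 (Interferon-stimulated-like). T6 was led by Xcl1, Crtam, Ccl1 and Il2, and T3 and T7 by histone genes, T3 with few UMIs per cell. In LN, L0 was led by Igfbp4 and Ccr9, L1 by Itga4 and Kmt2c, L2 by Ifit3 and Isg15 (Interferon-stimulated-like), L3 by Ccl5, Ccl4 and Gzmm (memory-like), L4 by S100a4 and S100a6, L5 by Hbb-bs, and L6 by Hivep3, Tnfrsf9, Nr4a1 and Egr3 (recently activated-like). A further LN cluster had fewer than 50 cells per library and was left out. Nfkbid was itself among the 10 leading genes of T6 and L6.

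Small clusters with activation genes had the highest levels of most NF-κB transcripts. L6 made up 2.71% of control and 2.47% of CD8-IFNgRKO LN cells and held 25.03% and 14.6% of the Nfkbid UMIs of the library. Nfkbid was at 246 and 140 CPM in L6, against medians of 25.6 and 26.7 CPM over the LN clusters. Relb was at 145 and 188 CPM, Nfkb1 at 248 and 313 CPM, Nfkb2 at 106 and 117 CPM, and Rel at 111 and 97.9 CPM, each at least 2.04 times the median over the clusters of that library. Against all other cells of the library, 8 of the 10 genes were past the fold in the higher direction in L6 in both genotypes, as were 13 of 23 and 12 of 20 target genes. Of all genes, 1513 of 9287 and 1495 of 9217 were past it. Tnfaip3 did not stand out in this way, with 360.2 and 409 CPM in L6 and 318 and 334 CPM in the large cluster L0. In CD8-IFNgRKO cells L6 was still its highest LN cluster, ahead of L1 at 388 CPM. In control cells L4 was highest, at 433 CPM. Of the 14 immediate early genes, 9 were past the fold in the lower direction in L6 in each genotype and 3 and 2 in the higher, and heat shock genes summed to 11612 and 14123 CPM there, the most of the LN clusters.

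T6, with 3.01% and 3.27% of the tumor cells, had the highest levels of most of these genes in the tumor. Nfkb1 was at 196 and 243 CPM, Rel at 181 and 120.1 CPM, Nfkbid at 103 and 109 CPM and Nfkbia at 1325 and 1181 CPM, the highest cluster for each of these genes. In T6 against other cells, 6 of the 10 genes in control and 7 in CD8-IFNgRKO cells were past the fold in the higher direction. So were 17 and 18 of 27 target genes and 10 and 6 of 14 immediate early genes. Of all genes, 802 of 10201 and 1200 of 10745 were past it. In the lower direction were 0 of the 10 genes, 0 and 2 target genes, and 1453 and 2184 of all genes. Tnfaip3 was instead highest in the Tcf7-led T4, at 794 and 625 CPM, and lowest in the cycling-like T2, at 275 and 179.9 CPM. Rela ranged from 59.3 to 101 CPM over the control and from 56.8 to 87.4 CPM over the CD8-IFNgRKO tumor clusters. With T6 and L6 left out, 4 genes in the tumor and 1 in LN were past the fold in the lower direction between genotypes, against 3 and 1 with them. The share of all genes past it without these clusters was not computed.

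**Figure D4:**
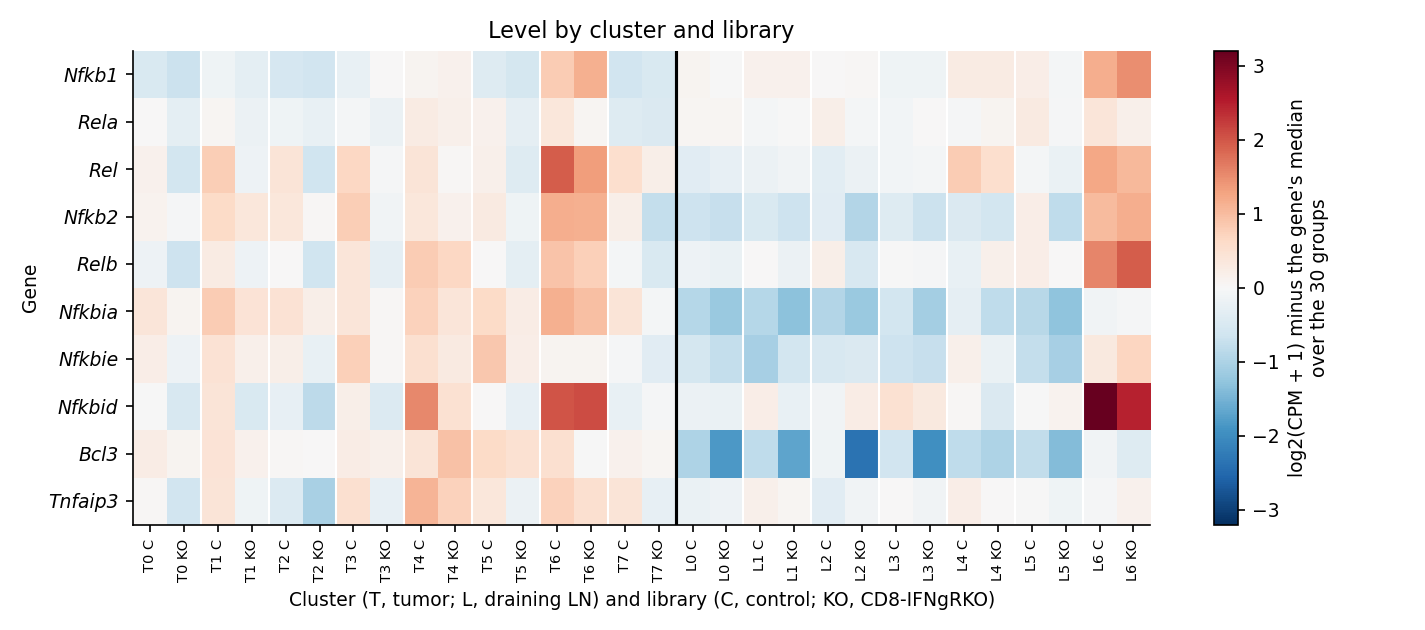
Level of each gene, as log2(CPM + 1) minus the gene's median over the 30 groups (color), in every cluster of the tumor (T0 to T7) and LN (L0 to L6) and both libraries. T6 and L6 are red for most subunits and Nfkbid, and Bcl3 is blue in LN, darkest for CD8-IFNgRKO cells of L2.

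In the tumor, the direction of the difference between genotypes was followed over the clusters. The share of all genes with one direction in every cluster was not computed, so that the count below cannot be set against it. For 7 of the 10 genes the CD8-IFNgRKO level was lower in all 8 tumor clusters: Rela, Rel, Nfkb2, Relb, Nfkbia, Nfkbie and Tnfaip3. Not every interval left out 0. Rel ranged from -1.04 in T2 to -0.35 in T7, and Tnfaip3 from -0.76 in T3 to -0.22 in T6. Nfkbia lay in a narrow range, from -0.49 in T7 to -0.17 in T6. Nfkb1 was lower in 4 of 8 clusters only, and in T6 it was higher in CD8-IFNgRKO cells (0.31, 0.12 to 0.50). Under 4 other clusterings, 5 to 7 genes had one direction in every cluster, and Rel, Relb and Tnfaip3 were among them each time.

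The Tcf7-led cluster T4 stood apart from the other tumor clusters in the direction of Bcl3. Bcl3 was higher in CD8-IFNgRKO cells there, at 98.1 against 67.8 CPM (0.53, 0.26 to 0.80), and in no other tumor cluster. Nfkbid had its lowest ratio in T4, at 35.2 against 73.4 CPM (-1.04, -1.37 to -0.71). This was close to its value in the granzyme-led T1 (-0.92, -1.07 to -0.76), and the 2 intervals overlapped. The immediate early genes summed to 7359 CPM in CD8-IFNgRKO and 6787 CPM in control cells of T4, the one tumor cluster where they were higher in CD8-IFNgRKO cells, and their part in these values was not tested.

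In LN, Bcl3 was lower in CD8-IFNgRKO cells in all 7 clusters. No other gene of the set had one direction in all of them, and the share over all genes was not computed. The difference of Bcl3 was widest in the Interferon-stimulated-like L2, with 9.15 against 46.7 CPM (-2.23, -2.91 to -1.59), and in the memory-like L3, with 12.3 against 33.2 CPM (-1.37, -1.87 to -0.88). In L0 it was -0.85 (-1.09 to -0.61). In L4, L5 and L6 the interval held 0. Relb (-0.71, -1.12 to -0.30) and Nfkb2 (-0.58, -1.05 to -0.12) were lower in L2 too, and Nfkb2 also in L5 (-1.04, -1.85 to -0.23). The value in L5 rests on 26 UMIs in CD8-IFNgRKO and 27 in control cells. Cells of L5 had medians of 3058 and 1237.5 UMIs in the same order. Nfkbia was lower in 6 of 7 LN clusters, from -0.52 in L4 to -0.26 in L2, and was at 0.06 in L6. Nfkbid, in turn, differed most in L6, at 140 against 246 CPM (-0.81, -1.15 to -0.48), while Relb (0.38, 0.04 to 0.72) and Nfkb1 (0.33, 0.07 to 0.59) were higher there in CD8-IFNgRKO cells.

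T cell receptor libraries of the tumor samples placed 4280 control and 5933 CD8-IFNgRKO cells in clones. The 3 largest clones of each library held 2626 and 2973 of them, so that values of large clones rest mostly on these few clones. Cells of clones with 10 or more cells (3896 and 5408) made up most of the cells in clones and of all tumor cells kept. Likeness of their log2 ratios to those of all cells was thus largely given beforehand. In this class Rel was at -0.88, Tnfaip3 at -0.72, Nfkbid at -0.68 and Relb at -0.54. In clones of 1 cell (182 and 364), Rel was at 68.1 CPM in CD8-IFNgRKO and 45.0 CPM in control cells, a ratio of 0.59 (0.07 to 1.12), and Bcl3 at 112 and 78.0 CPM (0.51, 0.12 to 0.92). The other 8 genes had intervals that held 0 in clones of 1 cell, among them Nfkbia (0.05, -0.08 to 0.18) and Tnfaip3 (-0.09, -0.26 to 0.08). In clones of 2 to 9 cells (202 and 161), Rel was at -0.83 (-1.45 to -0.22), Tnfaip3 at -0.32 and Nfkbia at -0.21, and the intervals of the other 7 genes held 0. Nfkb2, Relb and Tnfaip3 were the 3 genes below 0 in all 3 classes, a share that was not computed over all genes. These values depend on where the classes are parted. In clones of 2 to 4 cells (68 and 55), Rel was at -0.08 (-1.05 to 0.90), Nfkb1 at 0.74 (0.09 to 1.42) and Nfkb2 at 0.24 (-0.57 to 1.06), and with classes of 1, 2 to 4 and 5 or more cells 2 genes were below 0 in all of them.

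Clones of 1 cell lay mostly in T4, which held 83.5% of such control and 85.4% of such CD8-IFNgRKO cells, against 4.62% and 3.86% of the cells of clones with 10 or more. Within T4, therefore, the classes were set side by side. Nfkbia was at 884 CPM in CD8-IFNgRKO and 887 CPM in control T4 cells of clones of 1 cell (0.00, -0.15 to 0.14), and at 609 and 1247 CPM in those of clones of 10 or more cells (-1.03, -1.19 to -0.88). Nfkbid was at -0.68 (-1.29 to -0.05) in the former and -1.61 (-2.28 to -0.96) in the latter. Tnfaip3 did not separate the classes, at -0.22 (-0.40 to -0.03) and -0.28 (-0.44 to -0.13). Rel was at 0.30 (-0.29 to 0.93) and -0.63 (-1.29 to 0.01), and both intervals held 0. Bcl3 was at 0.49 (0.06 to 0.93) in T4 cells of clones of 1 cell and 0.06 (-0.50 to 0.63) in those of large clones. These T4 groups held 152 and 311 cells of clones of 1 cell and 180 and 209 cells of large clones, and the split was made after the values by cluster and clone size had been seen.

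**Figure D5:**
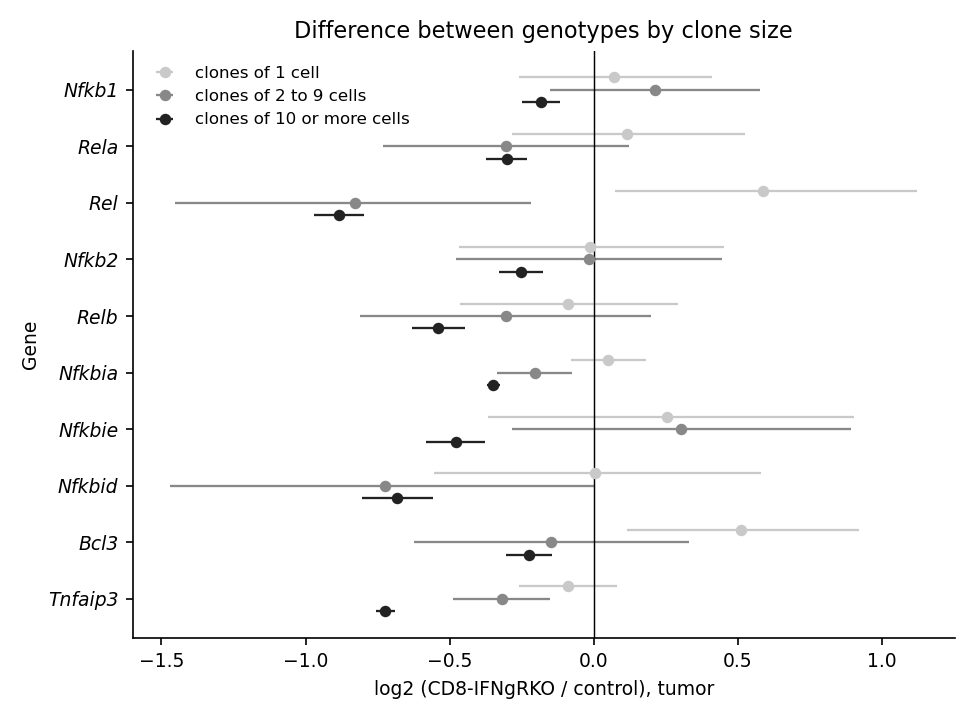
Log2 ratio of CD8-IFNgRKO to control in the tumor (horizontal axis, 1 CPM added) for cells of clones of 1, 2 to 9 and 10 or more cells, with 95% counting intervals. The black points lie left of 0 for all 10 genes, and the light point of Rel lies at 0.59.

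The genes most like each NF-κB gene over the 30 cluster and library groups were found by Pearson's r of log2(CPM + 1), given as a description because groups share libraries and depth. Likeness within the set varied widely over the 30 groups, with r from -0.13 (Nfkb1 and Bcl3) to 0.89. The low values came partly from differences between the tissues. Within the tumor and the LN groups, r was 0.19 and 0.51 for Nfkb1 and Bcl3. For Nfkb1 and Nfkbia it was -0.01 over all groups and 0.73 and 0.79 within them. Relb and Nfkbid were each other's closest gene, with r = 0.89 and the same value within the 16 tumor and the 14 LN groups. Kdm6b (0.83 and 0.86) and Nfkb1 (0.82 and 0.83) came next for both. Nfkb2 was closest to Nfkbib (0.89), which encodes another IκB protein, then to Nr4a3 (0.88) and Cd82 (0.87).

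Rel was closest to Tgif1 (0.86), Nr4a3 (0.83) and Gramd1b (0.80), and Nfkb1 to Gramd1b (0.88), Rnf149 (0.87) and Ctdnep1 (0.86). Nfkbia was closest to Gadd45b (0.97), Srgn (0.96) and Bcl2a1b (0.96), and Nfkbie to Cd82 (0.90), Batf (0.85) and Mea1 (0.84). Bcl3 was closest to Ier3 (0.88), Jak3 (0.87) and Nfkbia (0.87), but within the tumor groups these values were only 0.26, 0.22 and 0.29, so that the likeness lay mostly between the tissues. Tnfaip3 was closest to Csrnp1 (0.87), Wsb1 (0.83) and Irf1 (0.79), with r of 0.91 for Irf1 within the tumor groups and -0.48 within the LN groups. The closest genes to Rela were Flcn (0.79), Il2rg (0.78) and Eif1 (0.78).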

How the data were processed

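Sorted CD8+ Tomato+ cells from 2 tissues and 2 genotypes (1 library of 3 pooled mice each) were profiled by single-cell RNA sequencing, the tumor samples also by TCR sequencing. The authors ran Cell Ranger 6.0.0 on mm10 and deposited UMI counts, not normalized, for each gene in barcodes called cells, and for each TCR contig. A barcode was kept if it had 200 to 6000 genes, a mitochondrial share of 3% or less, no single gene over 20% of its UMIs, and a UMI of Cd2, of Cd8a and of Cd8b1. A tumor cluster led by macrophage or dendritic cell markers (23 control and 11 CD8-IFNgRKO cells) was removed. No doublet caller was run, and leaving out the 8% of cells with most UMIs was tried instead. UMIs were summed per library, and 1 CPM was added to both sides of log2 ratios. CPM carry exact Poisson, ratios conditional binomial and shares Clopper-Pearson intervals, and molecules of 1 pool are not replicates. No test or p value was computed. The UMIs behind a gene's level in a whole library numbered from 427 (Bcl3 in CD8-IFNgRKO LN) to 68583 (Nfkbia in CD8-IFNgRKO tumor). Values by cluster rest on fewer, such as 20 for Bcl3 in CD8-IFNgRKO cells of L2, and those by clone size likewise.

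A gene was past the fold at a log2 ratio of 0.5 or more in size, among genes with at least 100 UMIs over both libraries. Cells were clustered per tissue from 3000 variable genes, with mitochondrial and ribosomal shares and cell cycle scores (gene lists of Seurat 5.3.0, R 4.3.3) regressed out, 15 principal components, alignment of libraries by a rewritten Harmony algorithm, 20 neighbours and Louvain clustering at resolution 0.4 (python-igraph 0.11.9, scikit-learn 1.9.0). Other steps used numpy 2.4.6, scipy 1.17.1 and pandas 2.3.3 under Python 3.11.15, and plots matplotlib 3.10.9. The fold rule and the ratio intervals were tried on simulated Poisson counts and the alignment on simulated batches. The simulated counts held no variation between mice, and the other steps were not tried in this way. A cluster was named X-like with 3 or more of a class's markers among its 10 leading genes (fold with 10 CPM added). Clones shared V, J and CDR3 nucleotides of both chains. The pathway genes named are the 3 highest and 3 lowest of each comparison. The genes of likeness are the 3 with highest r among genes with 20 CPM or more in at least 25% of the groups, TCR segments left out. The members and lists were chosen with earlier results of these data known. Nfkb1, Nfkb2 and Bcl3 overlap other annotated genes, whose reads could not be told apart here. A list of pathway genes and 2 of the 3 promoter motifs searched are not reported here.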

Additional observations from a re-analysis of the deposited data

Results flagged for a closer look

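For 3 genes the difference between tumor and LN had opposite signs in the 2 genotypes, with both intervals of counting error on one side of 0. Rel was at 0.67 on the log2 scale in control and -0.18 in CD8-IFNgRKO cells, Relb at 0.14 and -0.27, and Tnfaip3 at 0.37 and -0.27. The signs were not opposite for Relb with the total taken without TCR, heat shock, ribosomal protein and mitochondrial genes (-0.14 in control) and for Tnfaip3 with the mean of single-cell CPM or thinned cells (0.11 and 0.07 in CD8-IFNgRKO cells). Each genotype has 1 library per tissue, and the difference between genotypes was not tested. It comes from the same libraries as the ratios between genotypes in each tissue, and is not a separate result.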

How the results depend on the processing

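No paired analysis was possible because each group is 1 library of pooled mice. In the tumor comparison of genotypes, all 140 values of the 10 genes under 14 other settings kept their sign, and 113 stayed within the counting interval of the reported value. In LN, 110 of 120 values kept their sign, and in the tissue comparisons 103 and 107 of 110. With a fold limit of 1, no gene was past it between genotypes (0 in the tumor, 0 in LN), and 2 genes were higher in the tumor than in LN in each genotype. With a minimum of 50 CPM in 1 of the libraries, 0 genes were past the fold in LN, since Bcl3 is below that level. Without TCR, heat shock, ribosomal protein and mitochondrial genes in the total, 1 gene in control and 5 in CD8-IFNgRKO cells were lower in the tumor than in LN, as were 38.4% and 37.6% of all genes. In CD8-IFNgRKO cells, 1 gene was lower with the median of all genes set to 0, and 1 with T6 and L6 left out, against 0 as reported. Under these settings, the fold limit of 1 and the minimum of 50 CPM, no share over all genes was computed. In LN, 2 genes, Nfkbia and Bcl3, had one direction in every cluster without alignment, with 30 principal components, or with the set among the variable genes, against Bcl3 alone. Leaving out T3 with L5, or T6 with L6, and thinning for the lists were chosen after seeing the data. Single libraries limit every comparison, and mice within a pool could not be separated.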
